A study of Mus musculus with 24 samples.

Results

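The lysosomal set comprised 42 genes of 15738 named in the count table: the 19 genes whose symbol starts with Atp6v and 23 symbols listed by name for lysosomal enzymes, membrane proteins and 2 transcription factors. All 42 had counts in at least 1 library. The RNA came from B16F10, a mouse melanoma cell line that makes pigment, after 24 h with vehicle or with TNFα at 2 ng/ml, an inflammatory cytokine that T cells secrete. The 4 genotypes were a control knockout line (ctrl-KO, labelled WT), an Rnf31 knockout, an Atg5 knockout and an Rnf31/Atg5 double knockout. The control is thus itself named as a knockout line, and its target is not given in the sources used here. There were 24 libraries in 8 groups, 3 biological replicates to a group by the labels, and the series concerns how resistant tumour cells can be made sensitive to such cytokines. Whether the lines were clones or pools, and where the genes were edited, is not given in the sources used here. The sources also do not say whether the replicates were grown and treated separately, and p-values cover no more than the variation among the libraries at hand.

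Lysosomes are acidic organelles that break down proteins, lipids and glycans delivered by endocytosis and by autophagy, for which Atg5 is needed to form the autophagosome. Their acidity is made by the V-ATPase, a proton pump in which a cytosolic V1 sector hydrolyses ATP and a membrane V0 sector carries the protons. Rnf31 (also HOIP) is the enzyme that builds linear ubiquitin chains at the TNF receptor. Many lysosomal genes are known targets of Tfeb and Tfe3, transcription factors that bind the CLEAR element, a sequence built around an E-box. In pigment cells the related factor Mitf binds similar sites, and melanosomes share much of their protein equipment with lysosomes.

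E-box sequences of members were read from RefSeq promoter windows on GRCm38.p6, which run from 250 bases before to 50 after the annotated start and were found for 33 of the 42 members. The core TCACGTGA, which is the same on both strands and holds the E-box CACGTG, was present in 7 of the 33 (21.2%), against 1.12% of 27025 genes with a window and 2.11% of the 10909 such genes in the count table. The full CLEAR element was in none of the 33 windows and in 0.370% of genes with a window (0.770% of those in the table). The 7 stretches are shown because they are the members whose promoter carries the longer core, and their transcripts did not move one way. Each reads 5′ to 3′ on the gene's strand, with up to 26 bases on each side and at most 20 after the start, and capitals mark TCACGTGA.
Ctsa: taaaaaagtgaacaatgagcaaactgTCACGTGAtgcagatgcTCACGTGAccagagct
Gla: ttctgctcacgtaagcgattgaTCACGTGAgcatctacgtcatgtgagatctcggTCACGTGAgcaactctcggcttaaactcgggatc
Ctsd: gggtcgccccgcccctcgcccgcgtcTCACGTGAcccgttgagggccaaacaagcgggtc
Mcoln1: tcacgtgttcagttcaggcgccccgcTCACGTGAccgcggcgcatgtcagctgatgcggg
Atp6v0e: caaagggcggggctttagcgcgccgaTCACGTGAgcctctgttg
Atp6v0d1: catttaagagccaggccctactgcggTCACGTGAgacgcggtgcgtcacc
Atp6v1a: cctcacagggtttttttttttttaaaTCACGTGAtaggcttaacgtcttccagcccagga
The Ctsa stretch lies at chr2:164833734-164833792, plus strand, and the core begins at -13 and at 5 from the start. The Gla stretch lies at chrX:134601167-134601255, minus strand, with cores at -228 and -195. The others are Ctsd at chr7:142387893-142387952, minus strand, Mcoln1 at chr8:3500447-3500506, plus strand, Atp6v0e at chr17:26676372-26676415, plus strand, Atp6v0d1 at chr8:105566045-105566094, minus strand and Atp6v1a at chr16:44139358-44139417, minus strand. The E-box CACGTG alone was in 12 of the 33 windows (36.4%), the 7 above among them, against 11.6% of table genes with a window. The Mitf-type variant TCATGTGA, searched on both strands, was in 3 (Atp6v0c, Gla and Tpp1, 9.09%), against 0.972%. These are matches of letters, and binding was not measured.

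Libraries held 19425795 to 33385502 counts on named genes, and 41 of the 42 members were among the 13527 genes tested. Atp6v1c2, with 50 counts over all 24 libraries, did not pass the low-count filter. Atg5 transcript stood at 50.5 to 61.9 CPM (counts scaled to a fixed library total) in control vehicle libraries, 20.7 to 24.9 in the Atg5 knockout (log2 fold change ± SE -1.30 ± 0.08) and 24.1 to 26.9 in the double knockout (-1.11 ± 0.08). Rnf31 transcript stood at 8.61 to 10.7 CPM in control and 7.74 to 8.52 in the Rnf31 knockout (-0.28 ± 0.10). It stood at 6.46 to 6.87 in the double knockout (-0.57 ± 0.10) and 12.3 to 13.9 in the Atg5 knockout (0.43 ± 0.10). Atg5, not targeted in the Rnf31 knockout, stood there at 42.9 to 46.8 CPM (-0.28 ± 0.07). That fall was as large as the fall of Rnf31 in the same vehicle libraries. With TNFα the Rnf31 knockout differed from control by -0.47 ± 0.10 for Rnf31. For Atg5 it differed by -0.17 ± 0.07 and did not pass the edgeR test (adjusted p = 0.0892). An edit can end a protein and leave its transcript, so these levels are a partial check of the labels. The summed level of 7 melanocytic markers, all present, ranged from 17974 CPM in Atg5 knockout vehicle to 21451 in control vehicle (group means). Of 8 macrophage markers 2 were measured, Lyz2 and Fcgr3, at a summed 0.440 to 2.31 CPM, and Fcgr3 was at 0 in at least 1 library. The 4 measured of 6 fibroblast markers summed to 7.40 to 14.7 CPM, with Col1a2 and Col3a1 at 0 in at least 1 library. In bulk RNA, fewer cells of a kind and less RNA per cell cannot be told apart. Control vehicle replicate 2 stood apart: its chi-square divided by the degrees of freedom was 30.0 and 19.0 against the other control vehicle libraries, and 8.57 or less in every other pair. In that library, genes in the shortest of 4 equal classes of transcript length had a median log2 ratio of 0.18 to the other 2 control vehicle libraries, and those in the longest class -0.11.

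Lysosomal transcripts were abundant in these cells. Summed over the 42 genes they made up 0.996% to 1.23% of each library. Per transcript length (in TPM, mean of all libraries), the tetraspanin Cd63 came first at 1944, above 99.4% of tested genes of known length. It was followed by Atp6v0c, the proteolipid that forms most of the rotating ring of the pump, at 1251 and the aspartic protease Ctsd at 1036. The calcium channel Mcoln1 at 14.6, above 49.9% of genes, Tfeb at 15.9 and Tfe3 at 16.8 were far less abundant. Atp6v0a4 (1.66), Atp6v1g2 (0.797) and Atp6v1c2 (0.0952), isoforms known from kidney, brain and other tissues, were near the bottom. Atp6v0c-ps2, a processed pseudogene of Atp6v0c, stood at 2.91, and how reads were divided between these near-identical sequences is not given in the sources used here.

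**Figure D1:**
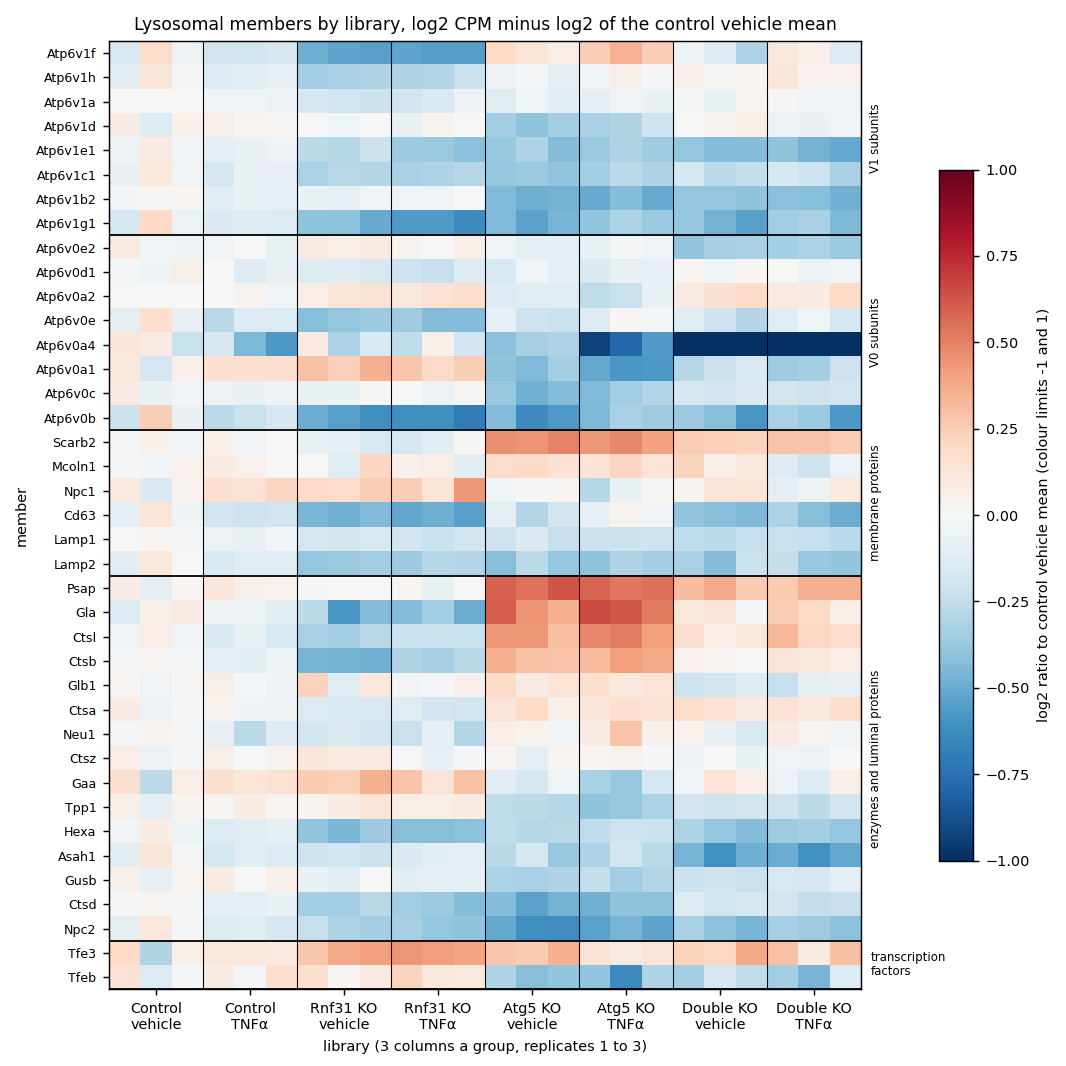
Each row is a member and each column a library, coloured by log2 CPM minus log2 of the control vehicle mean, with rows grouped by role and ordered by the Atg5 knockout difference. Scarb2, Psap, Gla, Ctsl and Ctsb are red in the Atg5 knockout columns, where most pump subunits are blue, and Gla, Ctsl and Ctsb are blue in the Rnf31 knockout. Atp6v1g2, Atp6v0c-ps2 and Atp6v1c2, below 2 CPM in every library, are left out, and Atp6v0a4 lies past the colour limit in the double knockout.

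In vehicle-treated Rnf31 knockout cells, 21 of 41 tested members (51.2%) were lower than in control, against 21.5% of all tested genes, and 6 (14.6%) were higher, against 24.1%. Among called members with at least 2 CPM in a group, the largest falls were in the pump subunits Atp6v0b (log2 fold change ± SE -0.55 ± 0.08) and Atp6v1f (-0.52 ± 0.07), the cysteine protease Ctsb (-0.47 ± 0.04) and Cd63 (-0.46 ± 0.05). With a correction for transcript length, described with the length classes, these stood at -0.28 for Atp6v0b, -0.17 for Atp6v1f, -0.60 for Ctsb and -0.22 for Cd63, so that their sizes and order depend on it. The median member differed by -0.15, and the median of all tested genes by 0.01. In vehicle-treated Atg5 knockout cells, 20 members (48.8%) were lower, against 30.7%, and 7 (17.1%) were higher, against 31.3%. Here Psap, the precursor of the saposins that help glycolipid hydrolases, rose (0.59 ± 0.04), and the cholesterol carrier Npc2 (-0.58 ± 0.05) fell. In the double knockout 21 (51.2%) were lower, against 27.2%, and 6 (14.6%) were higher, against 25.3%. The lightly expressed Atp6v0a4 (-1.33 ± 0.17) and the ceramidase Asah1 (-0.52 ± 0.05) fell most. These 3 comparisons use the same control libraries. Calls rest on edgeR's quasi-likelihood test with a Benjamini-Hochberg adjusted p under 0.05. The 7 melanocytic markers summed to 21451 ± 313 CPM in control, 19488 ± 173 in the Rnf31, 17974 ± 241 in the Atg5 and 20574 ± 319 in the double knockout. Of the 7, 4 were called lower and 1 higher in the Rnf31 knockout, 5 lower and 0 higher in the Atg5 knockout, and 3 lower and 2 higher in the double knockout. Mitochondrial transcripts summed to 6716 ± 872 CPM in control and to 4988 ± 210, 5127 ± 58.6 and 5505 ± 692 in the same order. The part of either in the lysosomal differences was not tested.

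The differences also ran with transcript length. Over all tested genes, the Rnf31 knockout with vehicle had a median log2 fold change of -0.24 in the shortest of 4 length classes (up to 1.77 kb) and 0.22 in the longest (above 4.37 kb). The corresponding medians were -0.16 and 0.16 in the Atg5 knockout and -0.19 and 0.16 in the double knockout. Of the tested members 10 belong to the shortest class, among them Atp6v0b, Atp6v1f, Atp6v1g1 and Cd63, and 5 to the longest, among them Ctsb, Ctsl and Scarb2. Within the shortest class the median member stood at -0.35, -0.28 and -0.27 in the 3 knockouts, below the medians of that class, and within the next class at -0.17, -0.19 and -0.21 beside -0.04, -0.03 and -0.06. In the class from 2.86 to 4.37 kb the members stood at -0.12, -0.27 and -0.02 beside 0.07, 0.03 and 0.01 for all genes, the double knockout hardly differing. In the longest class the 5 members stood at -0.11, 0.31 and 0.11 beside 0.22, 0.16 and 0.16, above all genes in the Atg5 knockout. A correction for each library's length trend was added after the data were seen. With it 19 members were lower and 6 higher in the Rnf31 knockout. The counts were 21 and 10 in the Atg5 knockout, and 18 and 8 in the double knockout. The shares of all tested genes called under that correction are not given here, so these counts are not set against a background. With TNFα the length medians of the Rnf31 knockout were -0.16 and 0.17, while those of the Atg5 knockout (0.05 and -0.01) and of the double knockout (-0.03 and 0.02) were near 0.

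**Figure D2:**
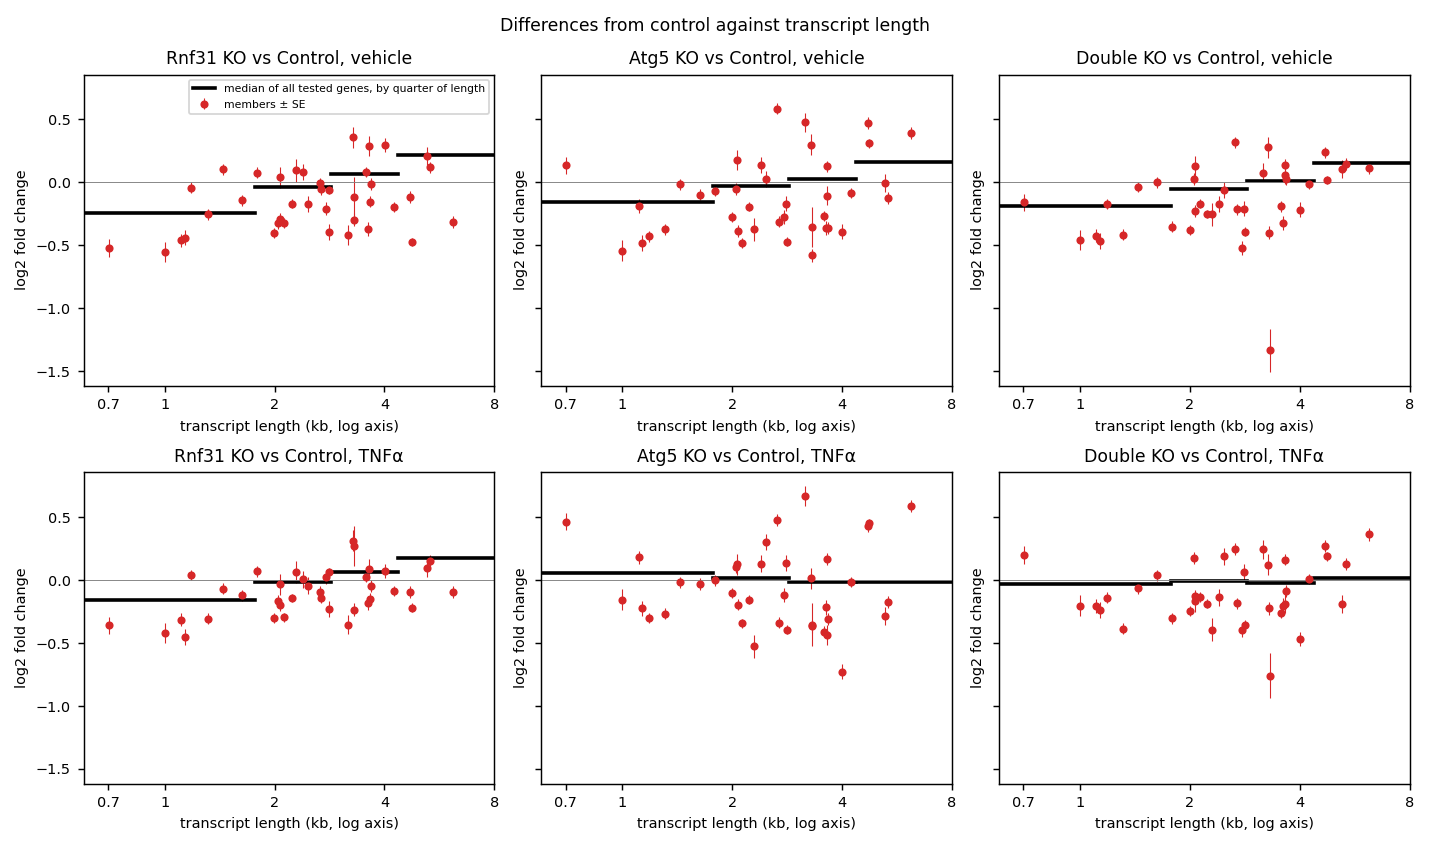
Red points are members, plotted by transcript length in kb (log axis) and log2 fold change against control with its SE, and black lines are medians of all tested genes in each of 4 length classes. With vehicle the black lines climb from short to long in all 3 knockouts, and with TNFα they climb in the Rnf31 knockout but stay between -0.03 and 0.05 in the other two.

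Among the 15 enzymes and luminal proteins, 5 rose and 6 fell in the Atg5 knockout with vehicle, 2 rose and 9 fell in the Rnf31 knockout, and 3 rose and 7 fell in the double knockout. Of all tested genes 31.3% rose and 30.7% fell in the Atg5 knockout, 24.1% and 21.5% in the Rnf31 knockout, and 25.3% and 27.2% in the double knockout, so the Atg5 knockout counts are near the background. Psap (GRCm38 chr10:60277627-60302597, protein-coding) stood at 499, 444 and 483 CPM in control, 471, 473 and 475 in the Rnf31 knockout, 714, 691 and 733 in the Atg5 knockout and 588, 616 and 571 in the double knockout. With TNFα it stood at 517, 495 and 489 CPM in control, 481, 451 and 476 in the Rnf31 knockout, 711, 683 and 697 in the Atg5 knockout and 568, 608 and 608 in the double knockout. Every Atg5 and double knockout library lay above every control library, in either treatment, and the Rnf31 knockout libraries overlapped the control with vehicle and lay below it with TNFα (-0.09 ± 0.04, adjusted p = 0.118). With vehicle the rise was 0.59 ± 0.04 in the Atg5 knockout (adjusted p = 6.11e-12) and 0.32 ± 0.04 in the double knockout (adjusted p = 1e-06).

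The cysteine proteases Ctsb and Ctsl, which digest proteins in the lumen, differed from the same control libraries in opposite directions in the single knockouts. Ctsb (chr14:63122462-63145923) stood with vehicle at 860.2, 881 and 858 CPM in control, 627, 624 and 621 in the Rnf31 knockout, 1108, 1059.8 and 1057 in the Atg5 knockout and 892, 879 and 863 in the double knockout. With TNFα its levels were 809, 805 and 838 CPM in control, 703, 689.6 and 715 in the Rnf31 knockout, 1081, 1154 and 1126 in the Atg5 knockout and 949, 937 and 909.7 in the double knockout. In both treatments the Rnf31 knockout libraries were below, and the Atg5 knockout libraries above, every control library. With vehicle Ctsb fell in the Rnf31 knockout (-0.47 ± 0.04, adjusted p = 4.21e-10) and rose in the Atg5 knockout (0.31 ± 0.04, adjusted p = 1.42e-08). The double knockout differed from control by 0.02 ± 0.04 with vehicle (adjusted p = 0.682) and by 0.19 ± 0.04 with TNFα (adjusted p = 6.68e-05).

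Ctsl (chr13:64359337-64370890) had 159, 171 and 159 CPM in control, 130.4, 129 and 134 in the Rnf31 knockout, 220.3, 221 and 200.5 in the Atg5 knockout and 183, 170.4 and 176 in the double knockout. The TNFα libraries held 147, 155 and 147 CPM in control, 140.5, 140.1 and 139.7 in the Rnf31 knockout, 227, 232 and 216 in the Atg5 knockout and 205, 188 and 185 in the double knockout. It fell in the Rnf31 knockout with vehicle (-0.31 ± 0.05, adjusted p = 9.77e-06) and rose in the Atg5 knockout (0.39 ± 0.05, adjusted p = 5.96e-08), with no overlap with control in either. With the length correction these were -0.52 and 0.23. With TNFα the Rnf31 knockout libraries lay below the control ones for Ctsl, but the difference did not pass the test. In the double knockout with vehicle the libraries overlapped the control, and the call (0.11 ± 0.05, adjusted p = 0.0494) was lost under 5 of 14 alternatives: a fit of only the groups compared, the length correction (-0.05, adjusted p = 0.485) and leaving out control vehicle replicate 1, control vehicle replicate 3 or double knockout vehicle replicate 1. Gla, the galactosidase that is missing in Fabry disease, followed the same order, at 31.5 ± 2.44 CPM (mean ± SD, n = 3) in control, 23.5 ± 2.64 in the Rnf31 knockout, 43.8 ± 3.70 in the Atg5 knockout and 33.2 ± 1.73 in the double knockout with vehicle. Its differences from control were -0.42 ± 0.08, 0.48 ± 0.07 and 0.08 ± 0.08, of which the first pair passed the test (adjusted p = 8.45e-05 and 3.2e-06).

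Ctsd, Npc2 and Asah1 are given side by side for the 3 knockouts, which share their control libraries. Ctsd (chr7:142375911-142388038) was measured at 1324, 1367 and 1332 CPM in control, 1058, 1053 and 1107 in the Rnf31 knockout, 993, 926 and 965 in the Atg5 knockout and 1223, 1169 and 1188 in the double knockout. With TNFα the values were 1250.5, 1251 and 1279.9 CPM in control, 1052, 1036 and 995 in the Rnf31 knockout, 959, 1014 and 1007 in the Atg5 knockout and 1178, 1128 and 1144 in the double knockout. No knockout library reached the control range of its treatment, and the Atg5 knockout had the lowest mean in both. The differences with vehicle were -0.32 ± 0.04 in the Rnf31 knockout, -0.48 ± 0.04 in the Atg5 knockout and -0.17 ± 0.04 in the double knockout (adjusted p = 2.03e-07, 7.72e-12 and 0.000373). The last was -0.09 with the length correction.

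Npc2 (chr12:84754562-84773152), the luminal carrier that hands cholesterol to the membrane protein Npc1, was at 261, 299.9 and 276 CPM in control, 237, 224 and 220.3 in the Rnf31 knockout, 196, 182 and 182 in the Atg5 knockout and 222, 209.8 and 203 in the double knockout. Under TNFα it was at 254, 257 and 248 CPM in control, 222, 213 and 211 in the Rnf31 knockout, 192, 202 and 194 in the Atg5 knockout and 222, 218 and 210.1 in the double knockout. The groups did not overlap the control in either treatment, and the vehicle difference was largest in the Atg5 knockout (-0.58 ± 0.05, adjusted p = 5.1e-11), beside -0.30 ± 0.05 in the Rnf31 knockout and -0.40 ± 0.05 in the double knockout. Asah1 (chr8:41340197-41374773), which splits ceramide, was at 155, 182 and 166 CPM in control, 145, 146 and 145 in the Rnf31 knockout, 138, 148 and 129 in the Atg5 knockout and 121, 109.9 and 119.6 in the double knockout. With TNFα it gave 149, 155 and 153 CPM in control, 151, 156 and 157 in the Rnf31 knockout, 135, 146 and 139 in the Atg5 knockout and 119, 110.3 and 118 in the double knockout. The double knockout libraries were the lowest in both treatments, without overlap with any other genotype, and differed from control by -0.52 ± 0.05 with vehicle (adjusted p = 7.77e-09) and -0.40 ± 0.06 with TNFα (adjusted p = 1.17e-06). With TNFα neither single knockout passed the test for Asah1 (0.03 ± 0.05 and -0.12 ± 0.05, adjusted p = 0.754 and 0.0721).

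**Figure D3:**
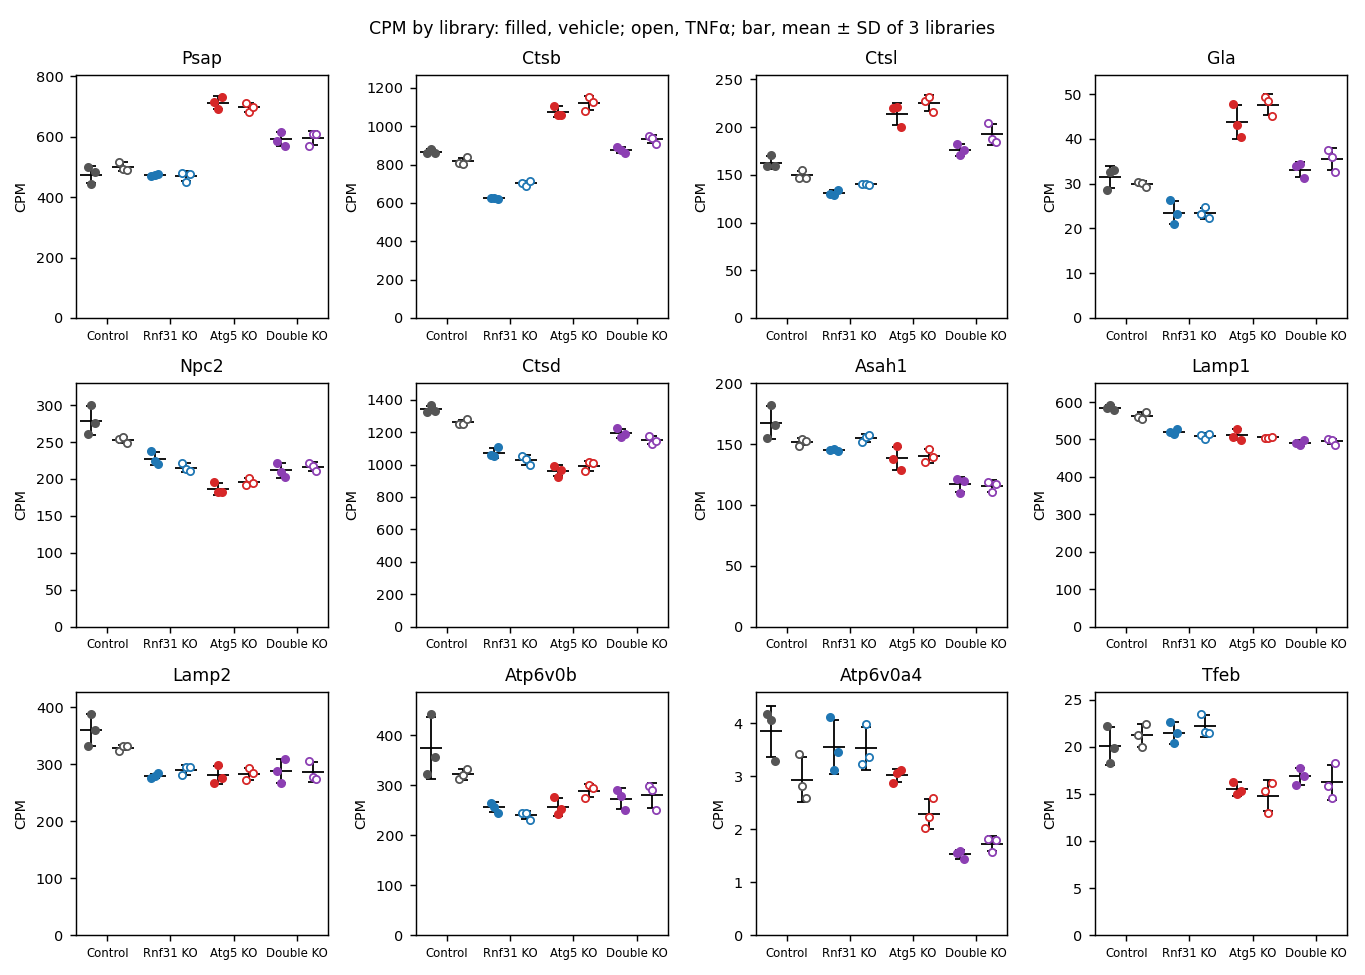
CPM of 12 members in every library, with vehicle filled and TNFα open, the bar marking the mean and the whisker the SD of 3 libraries. Psap is above control in the Atg5 and double knockouts. Ctsb lies below control in the Rnf31 knockout and above it in the Atg5 knockout, and Ctsd, Npc2 and Lamp1 lie below control in every knockout.

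The other enzymes spread in both directions. The hexosaminidase subunit Hexa fell in the Rnf31 (-0.40), Atg5 (-0.27) and double knockout (-0.38) with vehicle. The glucuronidase Gusb (-0.31 and -0.21) and the peptidase Tpp1 (-0.27 and -0.19) fell in the Atg5 and double knockouts. For both, the Rnf31 knockout did not pass the test (-0.05 and 0.08, adjusted p = 0.337 and 0.123). Ctsa, a carboxypeptidase that also shields other hydrolases, fell in the Rnf31 knockout (-0.15) and rose in the Atg5 (0.13) and double knockout (0.14), each by a small amount. The rise of Ctsa in the Atg5 knockout was lost in a fit of only the groups compared and without control vehicle replicate 2 or 3 or Atg5 knockout vehicle replicate 2 (highest adjusted p = 0.121). The double knockout call was lost in a fit of only the groups compared and without control vehicle replicate 2 or double knockout vehicle replicate 1, and the Rnf31 knockout call without control vehicle replicate 1 (highest adjusted p = 0.0669 and 0.0514). The glucosidase Gaa rose in the Rnf31 knockout (0.29, or 0.17 without control vehicle replicate 2), as did the carboxypeptidase Ctsz (0.10, adjusted p = 0.0448), whose call was lost under 10 of 14 alternatives. The sialidase Neu1 fell there (-0.17, adjusted p = 0.0319) and lost its call under 5. The galactosidase Glb1 fell in the double knockout (-0.17, adjusted p = 0.0277) and lost its call under 8.

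Of the 6 membrane proteins, 3 fell and 1 rose in each knockout with vehicle, against the same control libraries. The shares of all tested genes that fell were 21.5%, 30.7% and 27.2%, and those that rose 24.1%, 31.3% and 25.3%, in the Rnf31, Atg5 and double knockouts. Lamp1 (chr8:13159161-13175338), an abundant glycoprotein lining the lysosomal membrane, was at 583, 592 and 579.7 CPM in control, 519, 516 and 527 in the Rnf31 knockout, 508, 528 and 499.8 in the Atg5 knockout and 489, 485 and 499.9 in the double knockout. With TNFα it was at 560.3, 554 and 574 CPM in control, 512, 502 and 516 in the Rnf31 knockout, 505, 504 and 508 in the Atg5 knockout and 501, 497 and 486 in the double knockout. All knockout libraries lay below all control libraries of the same treatment, and the differences with vehicle were small but larger than the spread, at -0.17 ± 0.03, -0.19 ± 0.03 and -0.25 ± 0.03 (adjusted p = 0.00022, 1.91e-05 and 5.59e-07).

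Lamp2 (chrX:38401357-38456454), of which 1 isoform takes proteins up by chaperone-mediated autophagy, stood at 332, 388 and 359.9 CPM in control, 275, 278 and 284 in the Rnf31 knockout, 268, 298 and 276 in the Atg5 knockout and 287, 267 and 309 in the double knockout. Levels with TNFα were 324, 332 and 331 CPM in control, 280.3, 295 and 295 in the Rnf31 knockout, 272, 293 and 284 in the Atg5 knockout and 306, 277 and 275 in the double knockout. Here too no knockout library reached the control range of its treatment, and the vehicle differences were -0.37 ± 0.06, -0.36 ± 0.06 and -0.32 ± 0.06 (adjusted p = 8.23e-06, 3.19e-06 and 2.19e-05). Isoforms were not separated in the table.

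Cd63 (chr10:128900989-128912822), a tetraspanin of late endosomes and of vesicles released from cells, had 1238, 1461 and 1281 CPM in control, 966, 951 and 977 in the Rnf31 knockout, 1244, 1079.9 and 1168 in the Atg5 knockout and 1008, 986 and 971 in the double knockout. In TNFα libraries it had 1153, 1149 and 1153 CPM in control, 926, 943 and 913 in the Rnf31 knockout, 1257, 1361 and 1304 in the Atg5 knockout and 1066, 989.7 and 941 in the double knockout. It fell in the Rnf31 knockout (-0.46 ± 0.05, adjusted p = 2.23e-07) and in the double knockout (-0.42 ± 0.05, adjusted p = 1.5e-07) with vehicle, or by -0.22 and -0.24 with the length correction. The Atg5 knockout turned sign between treatments: against control it was -0.19 ± 0.05 with vehicle (adjusted p = 0.00303), where libraries overlapped, and 0.18 ± 0.05 with TNFα (adjusted p = 0.00427), where they did not. The vehicle call was lost with the length correction (-0.05, adjusted p = 0.233) and in a fit of only the groups compared, and stood at -0.11 without control vehicle replicate 2.

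Scarb2, the receptor that carries glucocerebrosidase to lysosomes, rose in the Atg5 (0.47 ± 0.05, adjusted p = 1.31e-09) and double knockouts (0.24 ± 0.05, adjusted p = 0.000121; 0.15 with the length correction) with vehicle and did not pass in the Rnf31 knockout (-0.11 ± 0.05, adjusted p = 0.0568), where it passed as lower with the length correction (-0.24). Npc1 (chr18:12189692-12236400), the membrane cholesterol exporter, was at 69.9, 59.0 and 67.0 CPM in control, 74.6, 74.0 and 77.3 in the Rnf31 knockout, 64.0, 64.8 and 66.5 in the Atg5 knockout and 67.0, 71.5 and 71.8 in the double knockout. With TNFα it was at 73.5, 72.2 and 75.7 CPM in control, 77.3, 71.7 and 88.0 in the Rnf31 knockout, 53.6, 62.3 and 65.9 in the Atg5 knockout and 61.2, 63.1 and 69.9 in the double knockout. It was called higher in the Rnf31 knockout with vehicle (0.21 ± 0.07, adjusted p = 0.0199), a call lost with the length correction (0.06, adjusted p = 0.502) and without control vehicle replicate 2 or Rnf31 knockout vehicle replicate 1 or 3. With TNFα it was lower in the Atg5 knockout (-0.28 ± 0.07, adjusted p = 0.00152), where the libraries did not overlap. Mcoln1 (chr8:3500457-3515232), the calcium channel of the lysosomal membrane, stood at 14.6, 14.5 and 15.2 CPM in control, 14.7, 13.6 and 17.1 in the Rnf31 knockout, 16.8, 16.9 and 16.3 in the Atg5 knockout and 17.2, 15.4 and 15.9 in the double knockout. TNFα libraries gave 15.5, 15.2 and 14.8 CPM in control, 15.3, 15.5 and 13.6 in the Rnf31 knockout, 16.2, 17.1 and 16.1 in the Atg5 knockout and 13.5, 12.8 and 14.1 in the double knockout. The Atg5 and double knockout libraries were above the control ones with vehicle, but all 12 lay between 13.6 and 17.2 CPM and none of the 3 knockouts passed the test (adjusted p = 0.723, 0.0595 and 0.182).

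The proton pump was lower in parts in each knockout. Of the 18 tested Atp6v genes, 10 fell and 0 rose in the Atg5 knockout with vehicle, 9 fell and 2 rose in the Rnf31 knockout, and 10 fell and 1 rose in the double knockout. Of all tested genes 30.7% fell and 31.3% rose in the Atg5 knockout, 21.5% and 24.1% in the Rnf31 knockout, and 27.2% and 25.3% in the double knockout. With TNFα 8 fell and 1 rose in the Atg5 knockout, 8 and 1 in the Rnf31 knockout, and 9 and 3 in the double knockout, beside 29% and 29.9%, 14.7% and 17.6%, and 23.1% and 22.6%. At an unadjusted p under 0.05, 0 of them were higher in the Atg5 knockout with vehicle, and DESeq2 called 0 higher. Neither takes transcript length into account. Per length, the short Atp6v1f stood at 743 ± 49.3 TPM (mean ± SD) in control vehicle and 895 ± 34.1 in Atg5 knockout vehicle libraries. The short Atp6v1g1 went the other way, from 778 ± 59.2 to 612 ± 16.3. The median log2 fold changes of the 18 with vehicle were -0.36 in the Atg5, -0.17 in the Rnf31 and -0.21 in the double knockout. The V1 genes summed to 2729 ± 150.02 CPM (mean ± SD, n = 3) in control vehicle libraries and to 2285 ± 11.4, 2242 ± 31.3 and 2281 ± 50.2 in the Rnf31, Atg5 and double knockouts. The V0 genes summed to 1977 ± 35.7 in control and to 1818 ± 24.4, 1572 ± 44.6 and 1721 ± 11.1. With TNFα the V1 sums were 2556 ± 25.3, 2244 ± 19.0, 2342 ± 60.6 and 2305 ± 79.1, and the V0 sums 1869.8 ± 9.89, 1805 ± 28.8, 1639.6 ± 64.9 and 1716 ± 22.4. The 3 knockout means of these CPM sums lay below the control of the same treatment, but the sums take no account of transcript length. Per length, the V0 genes did not all fall in the Rnf31 knockout with vehicle. Atp6v0c went from 1289 TPM in control to 1390 there, and Atp6v0b from 677 to 517. Atp6v1g2 and the pseudogene Atp6v0c-ps2, at 1.05 CPM or less in every library, were not called in any of the 3 knockouts with vehicle.

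In the V1 sector, the catalytic subunit Atp6v1a differed by -0.20 in the Rnf31 knockout (called), -0.09 in the Atg5 knockout and -0.02 in the double knockout (neither passed, adjusted p = 0.0556 and 0.75). Its partner in the ATP-binding ring, Atp6v1b2, fell in the Atg5 (-0.47 ± 0.04, adjusted p = 5.23e-12) and double knockouts (-0.39 ± 0.04, adjusted p = 4.29e-10) but did not pass in the Rnf31 knockout (-0.06 ± 0.04, adjusted p = 0.18). The stalk subunits Atp6v1e1 (-0.25, -0.37 and -0.42) and Atp6v1c1 (-0.29, -0.38 and -0.23) were lower in the Rnf31, Atg5 and double knockouts. The Rnf31 knockout difference of Atp6v1e1 was lost with the length correction (adjusted p = 0.236). The rotor subunit Atp6v1d fell in the Atg5 knockout (-0.37 ± 0.05, adjusted p = 2.24e-07), and the double knockout differed from the Atg5 knockout by 0.40 ± 0.05 (adjusted p = 2.15e-07). The regulatory subunit Atp6v1h fell in the Rnf31 knockout (-0.32).

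Atp6v1g1 (chr4:63544772-63550750), a stalk subunit, was measured at 434, 561 and 468 CPM in control, 368, 366 and 344 in the Rnf31 knockout, 358, 336 and 353 in the Atg5 knockout and 372, 351 and 335 in the double knockout. With TNFα it was measured at 441, 445 and 444 CPM in control, 329, 329.6 and 315 in the Rnf31 knockout, 371, 390.4 and 378 in the Atg5 knockout and 384, 388 and 358 in the double knockout. Control vehicle replicate 2 had the highest value, and all knockout libraries were below all control libraries in both treatments. The vehicle differences were -0.44 ± 0.06, -0.48 ± 0.06 and -0.47 ± 0.06 (adjusted p = 2.47e-06, 1.08e-07 and 3.2e-07), and -0.20, -0.34 and -0.28 with the length correction. Atp6v1f (chr6:29467718-29470512), part of the central shaft, was at 258, 327 and 279 CPM in control, 205, 199.5 and 198 in the Rnf31 knockout, 330.2, 317 and 301 in the Atg5 knockout and 278, 264 and 233 in the double knockout. Under TNFα it stood at 253, 251 and 257 CPM in control, 199.5, 197 and 197 in the Rnf31 knockout, 341, 367 and 342 in the Atg5 knockout and 312, 299 and 263 in the double knockout. It was lowest in the Rnf31 knockout in both treatments (-0.52 ± 0.07, adjusted p = 1.35e-06 with vehicle, or -0.17 with the length correction). In the Atg5 knockout the vehicle libraries overlapped the control (0.13 ± 0.07, adjusted p = 0.09), and the TNFα libraries lay above it (0.46 ± 0.07, adjusted p = 1.54e-06).

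In the V0 sector, Atp6v0b (chr4:117884326-117887333), a proteolipid of the ring, was at 323, 443 and 357 CPM in control, 265, 257 and 245 in the Rnf31 knockout, 277, 242 and 252 in the Atg5 knockout and 290.3, 279 and 249.7 in the double knockout. The TNFα values were 311, 321 and 333 CPM in control, 245, 244 and 231 in the Rnf31 knockout, 275, 299 and 293 in the Atg5 knockout and 299, 289.8 and 251 in the double knockout. With vehicle no knockout library reached the control range, and the differences were -0.55 ± 0.08, -0.54 ± 0.08 and -0.46 ± 0.08 (adjusted p = 4.41e-06, 1.37e-06 and 2.59e-05), and -0.28, -0.38 and -0.25 with the length correction. Control vehicle replicate 2 was the highest library. With TNFα the Rnf31 knockout was lower (-0.42 ± 0.08, adjusted p = 0.000262), the Atg5 knockout did not pass (-0.15 ± 0.08, adjusted p = 0.102), and the double knockout's call (-0.20 ± 0.08, adjusted p = 0.0421) was lost under 8 of 14 alternatives. The abundant ring proteolipid Atp6v0c fell in the Atg5 knockout (-0.43 ± 0.04, adjusted p = 1.25e-09) and in the double knockout (-0.17 ± 0.04, adjusted p = 0.0013), the latter lost in a fit of only the groups compared and with the length correction (adjusted p = 0.966). The double knockout differed from the Atg5 knockout by 0.26 ± 0.04 for Atp6v0c (adjusted p = 2.17e-05).

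The a subunit of V0 exists as isoforms that place the pump in different membranes. With vehicle, Tcirg1 and Atp6v0a1 held different shares of this subunit in the 4 lines, a difference not tested as a share. Per transcript length, Tcirg1 (the a3 isoform, no Atp6v symbol) made up 42.6% ± 0.947 (SD, n = 3) of a-subunit transcripts in control vehicle libraries, 38.7% ± 1.18 in the Rnf31 knockout, 45.4% ± 0.671 in the Atg5 knockout and 50.5% ± 1.42 in the double knockout. Atp6v0a1 made up 26.5% ± 1.23, 30.3% ± 1.04, 22.8% ± 0.679 and 20.1% ± 0.712 in the same order. Atp6v0a2 stayed between 28.2% and 31.0% in all 8 group means. Its level differed by 0.12, -0.12 and 0.15 in the Rnf31, Atg5 and double knockouts with vehicle (adjusted p = 0.0413, 0.0238 and 0.0106), calls lost under 9, 4 and 1 of 14 alternatives. Atp6v0a1 rose in the Rnf31 knockout (0.30 ± 0.06, adjusted p = 0.000116) and fell in the Atg5 (-0.39 ± 0.06, adjusted p = 1.35e-06) and double knockouts (-0.22 ± 0.06, adjusted p = 0.00248) with vehicle, the last call being lost in a fit of only the groups compared (adjusted p = 0.0513). Tcirg1 rose in the double knockout (0.43 ± 0.05, adjusted p = 1.31e-08) and did not pass in the Rnf31 (-0.03 ± 0.05, adjusted p = 0.62) or Atg5 knockout (-0.08 ± 0.05, adjusted p = 0.139). The shares with TNFα were 42.4%, 40.0%, 46.7% and 49.7% for Tcirg1 and 28.5%, 28.8%, 21.4% and 19.9% for Atp6v0a1. The Atp6v0a1 share was thus nearly the same in control and Rnf31 knockout with TNFα, where its level did not pass the test.

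**Figure D4:**
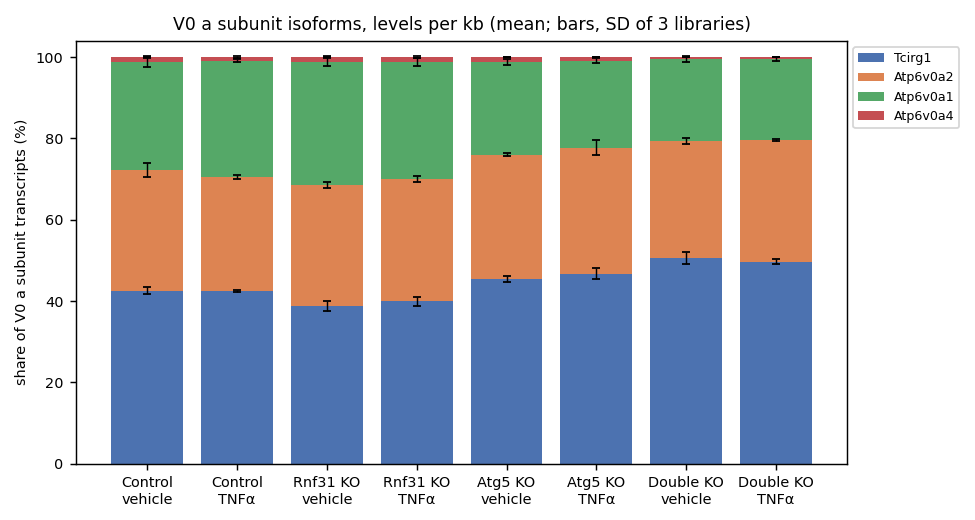
Stacked bars give the share of V0 a-subunit transcripts, computed from levels per transcript length, held by Tcirg1, Atp6v0a2, Atp6v0a1 and Atp6v0a4 in each group, with whiskers for the SD of 3 libraries. Tcirg1 has the largest share in every group, from 38.7% in Rnf31 knockout vehicle to 50.5% in double knockout vehicle.

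Atp6v0a4 (chr6:38048483-38124586), an isoform of acid-secreting epithelia, was scarce, at 4.18, 4.06 and 3.29 CPM in control, 4.11, 3.11 and 3.45 in the Rnf31 knockout, 2.88, 3.05 and 3.11 in the Atg5 knockout and 1.56, 1.59 and 1.43 in the double knockout. With TNFα it was at 3.41, 2.81 and 2.58 CPM in control, 3.23, 3.98 and 3.36 in the Rnf31 knockout, 2.03, 2.23 and 2.59 in the Atg5 knockout and 1.82, 1.57 and 1.79 in the double knockout. The double knockout libraries were below all others in both treatments, by -1.33 ± 0.17 against control with vehicle (adjusted p = 2.2e-07) and -0.76 ± 0.18 with TNFα (adjusted p = 0.000909). Its share of a-subunit transcripts was 1.34% in control vehicle and 0.469% in double knockout vehicle libraries. Of the 2 e-subunit genes, Atp6v0e2 fell in the double knockout (-0.35 ± 0.04, adjusted p = 6.87e-08) and did not pass in either single knockout (0.08 and -0.07, adjusted p = 0.132 and 0.161). Atp6v0e fell in the Rnf31 knockout (-0.39 ± 0.06, adjusted p = 1.29e-05). It was also called lower in the Atg5 (-0.17 ± 0.06, adjusted p = 0.0205) and double knockouts (-0.21 ± 0.06, adjusted p = 0.00604), calls lost under 4 and 3 of 14 alternatives, among them leaving out control vehicle replicate 2 (highest adjusted p over the alternatives 0.239 and 0.0863). The peripheral subunit Atp6v0d1 differed by -0.14, -0.10 and 0.00, of which the first was called and was lost with the length correction (adjusted p = 0.924) and without control vehicle replicate 3.

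Tfeb (chr17:47737030-47792419), a regulator of lysosomal genes, stood at 22.2, 18.3 and 19.9 CPM in control, 22.6, 20.4 and 21.4 in the Rnf31 knockout, 16.3, 14.9 and 15.3 in the Atg5 knockout and 15.9, 17.8 and 16.9 in the double knockout. With TNFα the Tfeb levels were 21.2, 19.9 and 22.5 CPM in control, 23.5, 21.6 and 21.5 in the Rnf31 knockout, 15.3, 13.0 and 16.2 in the Atg5 knockout and 15.8, 14.6 and 18.3 in the double knockout. All Atg5 and double knockout libraries were below all control libraries of the same treatment. The difference was -0.37 ± 0.09 in the Atg5 knockout with vehicle (adjusted p = 0.000818) and -0.52 ± 0.09 with TNFα (adjusted p = 2e-05). In the double knockout it was -0.25 ± 0.09 with vehicle (adjusted p = 0.0209), lost under 5 of 14 alternatives, and -0.39 ± 0.09 with TNFα (adjusted p = 0.000968). In the Rnf31 knockout Tfeb did not pass (0.10 ± 0.09, adjusted p = 0.41).

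Tfe3 (chrX:7762560-7775202), its close relative, was at 27.3, 19.3 and 24.8 CPM in control, 28.7, 31.0 and 31.7 in the Rnf31 knockout, 28.8, 28.6 and 30.5 in the Atg5 knockout and 27.9, 27.6 and 31.2 in the double knockout. Its TNFα levels were 25.8, 25.7 and 25.4 CPM in control, 32.3, 31.8 and 31.4 in the Rnf31 knockout, 26.3, 25.3 and 26.1 in the Atg5 knockout and 29.2, 25.4 and 29.3 in the double knockout. Control vehicle replicate 2 was the lowest of all 24 libraries. With vehicle Tfe3 was higher in the Rnf31 (0.36 ± 0.08, adjusted p = 0.000915), Atg5 (0.30 ± 0.08, adjusted p = 0.00274) and double knockouts (0.28 ± 0.08, adjusted p = 0.00624), the last call being lost without control vehicle replicate 2 and in a fit of only the groups compared. Without that library the 3 differences were 0.22, 0.17 and 0.15. With TNFα the Rnf31 knockout passed (0.31 ± 0.08, adjusted p = 0.0051), and the Atg5 (0.01 ± 0.09, adjusted p = 0.898) and double knockouts (0.12 ± 0.09, adjusted p = 0.249) did not. The transcript level of these factors does not measure their nuclear location, through which they are known to be controlled. Of the 7 members with TCACGTGA printed above, Ctsa and Gla rose in the Atg5 knockout with vehicle, Ctsd and Atp6v0e fell, and Mcoln1, Atp6v0d1 and Atp6v1a were not called.

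The double knockout was set against each single knockout directly, in the vehicle libraries. Against the Atg5 knockout, 12 members (29.3%) were lower and 7 (17.1%) higher, beside 19.8% and 18.2% of all genes. With the length correction the split was 11 lower and 13 higher, for which no share of all genes is given here. The largest difference was in the scarce Atp6v0a4 (-0.98 ± 0.17). Among the enzymes and membrane proteins that were lower in the double knockout were Gla at -0.40 ± 0.07, Ctsb at -0.29 ± 0.04, Ctsl at -0.28 ± 0.05, Psap at -0.27 ± 0.04 and Scarb2 at -0.23 ± 0.05. Against the same Atg5 knockout libraries, Atp6v1d (0.40 ± 0.05), Ctsd (0.31 ± 0.04) and Atp6v0c (0.26 ± 0.04) were higher in the double knockout. The adjusted p of these 8 lay between 1.22e-07 and 0.000228. These values involve the Atg5 knockout libraries, so they are not independent of the differences from control given above. Against the Rnf31 knockout, 14 members (34.1%) were lower and 12 (29.3%) higher, beside 25.6% and 22.5%. Gla (0.50 ± 0.08), Ctsb (0.49 ± 0.04) and Ctsl (0.43 ± 0.05) were higher, and Atp6v0a4 (-1.22 ± 0.17), Atp6v0a1 (-0.51 ± 0.06) and Atp6v0e2 (-0.43 ± 0.04) lower.

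The TNFα libraries are separate from the vehicle libraries but come from the same 4 lines. They repeat the measurement of each line, and a trait of a line unrelated to its edit would recur in both. In the Rnf31 knockout with TNFα 18 members (43.9%) were lower and 2 (4.88%) higher than in control, against 14.7% and 17.6%. In the Atg5 knockout 18 (43.9%) were lower and 9 (22.0%) higher, against 29% and 29.9%. In the double knockout 21 (51.2%) were lower and 10 (24.4%) higher, against 23.1% and 22.6%. Calls with the same direction in both treatments numbered 19 in the Rnf31 knockout (70.4% of its vehicle calls and 95.0% of its TNFα calls), 22 in the Atg5 knockout (81.5% of each) and 24 in the double knockout (88.9% and 77.4%). Over all tested genes these shares were 58.2% and 82.2%, 73.9% and 77.9%, and 66.7% and 76.6%. Cd63 in the Atg5 knockout was the 1 member with opposite calls. Among the largest TNFα differences, Atp6v0a1 was at -0.73 ± 0.06, Gla at 0.67 ± 0.08 and Ctsl at 0.59 ± 0.05 in the Atg5 knockout.

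**Figure D5:**
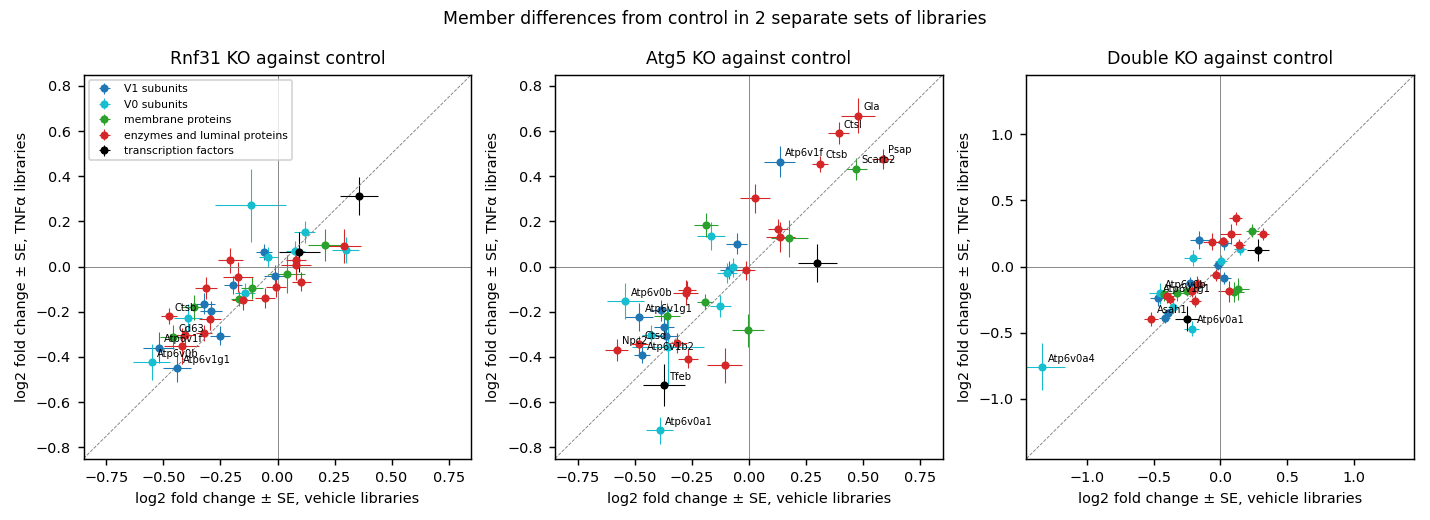
Each point is a member, with its log2 fold change against control and SE in vehicle libraries (horizontal) and in TNFα libraries (vertical), 1 panel a knockout, coloured by role. Psap, Gla, Ctsl, Ctsb and Scarb2 lie at the upper right in the Atg5 knockout panel and Atp6v0a1 at the bottom, and Atp6v0a4 stands alone at the lower left in the double knockout panel.

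Few lysosomal transcripts passed the test for TNFα against vehicle within a genotype. In control cells 0 of 41 members were called, beside 0.0961% of all genes higher and 0% lower. At an unadjusted p under 0.05 there were 19, and DESeq2 called 5. Without control vehicle replicate 1 edgeR called 14, 3 higher and 11 lower, in a fit that keeps control vehicle replicate 2, the library that stood apart. With replicate 2 left out instead, it called 0. In the Rnf31 knockout Ctsb alone was called, from 627, 624 and 621 CPM with vehicle to 703, 689.6 and 715 with TNFα (0.17 ± 0.04, adjusted p = 0.0084), beside 0.902% of genes higher and 0.266% lower. That call was lost with the length correction and without Rnf31 knockout TNFα replicate 3. In the control the same change of Ctsb was -0.08 ± 0.04 and did not pass (adjusted p = 0.17), and the difference of the 2 responses was 0.25 ± 0.05 (adjusted p = 0.0735). In the Atg5 knockout 0 members were called (8 at an unadjusted p under 0.05, 0 by DESeq2), beside 0% and 0%. The double knockout had 0 as well (5 and 0), beside 0.0665% and 0.0665%. These percentages of all genes are for the main fit. None is given here for the unadjusted counts or the other fits, so those counts are not set against a background.

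The response to TNFα was then compared between each knockout and control. For the Atg5 knockout 7 members differed, 5 higher (12.2%, against 4.94% of genes) and 2 lower (4.88%, against 6.42%). Cd63 (0.37 ± 0.07, adjusted p = 0.00799), Atp6v0b (0.39 ± 0.11), Atp6v1f (0.33 ± 0.10), Atp6v0e (0.30 ± 0.09) and Npc2 (0.21 ± 0.07) had a higher response in the Atg5 knockout. Atp6v0a1 (-0.33 ± 0.08) and Gaa (-0.33 ± 0.11) had a lower one. The control response enters each of these, and Cd63 changed by -0.20 ± 0.05 in control and 0.17 ± 0.05 in the Atg5 knockout, neither of which passed alone. The count was 2 with the length correction and 2 without control vehicle replicate 2, while it was 18 without control vehicle replicate 1 and 1 without Atg5 knockout TNFα replicate 2. For the Rnf31 knockout 0 members differed in response (8 at an unadjusted p under 0.05, 1 by DESeq2), beside 0.00739% and 0% of genes. For the double knockout 0 differed (16 and 6), beside 0.384% and 0.769%. Here too the percentages of all genes are for the main fit, and the unadjusted counts and the other fits have none beside them.

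Other genes of the lysosome were taken from lists chosen, like the members, with earlier results known. Of 29 other hydrolases and activators, 9 rose and 8 fell in the Atg5 knockout with vehicle, 4 and 7 in the Rnf31 knockout, and 7 and 8 in the double knockout. Of all tested genes 31.3% rose and 30.7% fell in the Atg5 knockout. The shares were 24.1% and 21.5% in the Rnf31 knockout, and 25.3% and 27.2% in the double knockout. The Atg5 and double knockout counts are thus at the background. The Atg5 knockout changes included the proteases Ctsh (1.61 ± 0.08, adjusted p = 1.55e-15) and Ctso (1.75 ± 0.12, adjusted p = 6.27e-13), which rose, and the acid lipase Lipa (-0.90 ± 0.06, adjusted p = 6.44e-14), which fell. In the double knockout Ctsh (1.99-fold) and Ctso (1.71-fold) also rose, and Lipa did not pass (0.08 ± 0.05, adjusted p = 0.236). Of 20 other membrane proteins 6 rose and 10 fell in the Atg5 knockout, beside 31.3% and 30.7% of all genes. The channel Mcoln3 rose in the double knockout (0.31 ± 0.05, adjusted p = 5.56e-06) but was among those that fell in the Atg5 knockout (-0.78 ± 0.05). Of 10 genes that deliver enzymes to lysosomes 1 rose and 8 fell there, beside 31.3% and 30.7% of all tested genes, and the retromer subunits Vps35 (-0.84 ± 0.05) and Vps26a (-0.64 ± 0.05) and the enzyme Nagpa (-0.86 ± 0.07), which uncovers the mannose 6-phosphate tag, were among them. The median of these 10 was -0.33, and Vps35 and Nagpa fell in the double knockout too (-0.70 ± 0.05 and -0.69 ± 0.07). In the Rnf31 knockout 2 of the 10 rose and 4 fell, beside 24.1% and 21.5% of all tested genes.

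Of 13 other pump parts and assembly factors 4 rose and 5 fell in the Atg5 knockout with vehicle, near the 31.3% and 30.7% of all tested genes. The assembly factor Dmxl2 fell (-0.96 ± 0.06, adjusted p = 2.37e-14), as did Tmem199 (-0.73 ± 0.07), while Ncoa7 rose (0.57 ± 0.06). Of 17 genes of mTORC1 control at the lysosome, 3 rose and 6 fell there, beside the same shares. The folliculin gene Flcn (-0.61 ± 0.05, adjusted p = 1.21e-11) and Rragc (-0.54 ± 0.04, adjusted p = 3.17e-11), which together govern the phosphorylation of Tfeb and Tfe3, fell, and Rraga rose (0.54 ± 0.07, adjusted p = 1.29e-07). Flcn and Rragc fell in the double knockout too (-0.25 ± 0.05 and -0.36 ± 0.04). Mitf itself did not pass in the Atg5 knockout (-0.02 ± 0.05, adjusted p = 0.799) and was lower in the Rnf31 knockout (-0.27 ± 0.05, adjusted p = 9.98e-05).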

How the data were processed

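RNA of the 24 libraries was sequenced by a commercial provider, per the labels' protocols. The values deposited by the authors are expected counts per gene symbol, not normalized: whole numbers with unequal totals, and RSEM, which estimates counts, is named with STAR, DESeq2, GRCm38 and mm10 in the submitters' processing notes, with no versions or roles. Rounding changed none. The strand setting is not given in the sources used here. Reads of a gene and of one that overlaps it, on either strand, cannot be told apart. The 1 row with a blank name (mean 0.140% of counts) was left out.

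Libraries were grouped by their labels. edgeR 4.0.16 (R 4.3.3; TMM, filterByExpr, quasi-likelihood test) was fitted to 8 group means over all 24 libraries. The filter left out 2211 genes, and p-values were adjusted (Benjamini-Hochberg) over the 13527 left, in each of 15 comparisons. The biological coefficient of variation was 6.17%. SEs are the log2 fold change divided by the root of its F. Replicates differed by more than counting noise (chi-square per degree of freedom 3.09 to 30.0), so none was merged. Coordinates and principal transcript lengths are from GENCODE M21 on GRCm38, known for 98.7% of tested genes. Levels per length are counts per kb scaled to the same total in each library (TPM). The fit was tested on simulated counts with the same spread for every gene, no length trend and no library that stood apart. That test therefore does not cover these features of the data.

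Members, lists and tests were chosen with earlier results of these data known, so lists support nothing independently. Values in every library are given for Lamp1, Lamp2, Ctsb, Ctsd, Ctsl, Npc1, Mcoln1, Tfeb and Tfe3, for the 4 called members with the largest change in each knockout with vehicle (at least 2 CPM in a group mean) and for the 2 largest called per TNFα response. From each related list the 3 called genes with the smallest adjusted p in the Atg5 knockout were named, and Tcirg1 and Mitf because a result turns on them. Gla, Scarb2 and other members are described by fold change. Alternatives were RLE size factors, a filter on the mean (1 CPM) or none, robust spread, DESeq2 1.42.0, only the groups compared, a replicate term, each library of the groups compared left out, and a length correction added after the data were seen.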

Additional observations from a re-analysis of the deposited data

Results flagged for a closer look

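The change with TNFα differed between the Atg5 knockout and control for 7 members, by a test of the difference itself (edgeR, interaction contrast, adjusted over all tested genes). On the log2 scale the difference, Atg5 knockout minus control, was 0.371 for Cd63 (adjusted p = 0.00799), 0.3875 for Atp6v0b (adjusted p = 0.0318), 0.3303 for Atp6v1f (adjusted p = 0.0322), 0.304 for Atp6v0e (adjusted p = 0.0307) and 0.2126 for Npc2 (adjusted p = 0.0469). It was -0.334 for Atp6v0a1 (adjusted p = 0.0161) and -0.3315 for Gaa (adjusted p = 0.048). Over all tested genes the same difference had a median of 0.21 in the shortest of 4 transcript length classes and -0.18 in the longest, and Cd63, Atp6v0b and Atp6v1f are in the shortest class. With the length correction 2 members were called.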

How the results depend on the processing

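In the 6 comparisons of a knockout with control and the 2 of the double with a single knockout, every alternative kept the count of members called within 1.5 times. With 1 library left out, 23 to 27 members were called in the Rnf31, 25 to 28 in the Atg5 and 24 to 26 in the double knockout with vehicle, 17 to 19 and 21 to 24 in the double against the Atg5 and the Rnf31 knockout, and 17 to 21, 26 to 28 and 26 to 28 with TNFα. For the TNFα response they were 0 to 14 in control, 0 to 1 in the Rnf31 knockout, and 0 to 0 in the Atg5 and double knockouts. The response differences gave 0 to 1 (Rnf31), 1 to 18 (Atg5) and 0 to 12 (double), the highest each time without control vehicle replicate 1. DESeq2 called 5 members for the response in control and 2 in the Rnf31 knockout, and 1, 15 and 6 for the response differences of the Rnf31, Atg5 and double knockouts. A fit of only the groups compared gave 3 for the response in the Rnf31 knockout and 2 for the Atg5 knockout's response difference. The length correction gave 0 for the first and 2 for the second, and 1 for the response difference of the Rnf31 knockout. The replicate block gave 1, 13 and 3 for the response differences of the Rnf31, Atg5 and double knockouts, in place of 0, 7 and 0, and changed no other count by over 1.5 times. Same-numbered libraries of different groups had a mean correlation of deviations of 0.02 (-0.17 to 0.15, 84 pairs), and other-numbered ones -0.01. Of 24 libraries 18 correlated best with their own number, more than random matching among 3 numbers would give on average. The main fit holds no replicate term, and what same-numbered libraries share was not tested. The length correction reversed 4 differences from control with vehicle: Atp6v0a2 (-0.0425, adjusted p = 0.465) and Atp6v0c (0.18, adjusted p = 0.0134) in the Rnf31 knockout, and Atp6v1f (0.1069, adjusted p = 0.0178) and Ctsl (-0.0546, adjusted p = 0.485) in the double knockout. No share of all tested genes is given here for these alternatives, so their counts are not set against a background. Why the remaining counts moved was not tested. Atp6v1g2, Atp6v0c-ps2 and Atp6v1c2 stood at 1.05 CPM or less in every library, and what differences could be detected at that depth was not tested.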
